A study of Mus musculus with 2 samples.

Results

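Levels of 10 transcription factors of the foregut epithelium were examined in mouse stomach at embryonic day 16.5. The members are Foxa1, Foxa2, Foxa3, Gata4, Gata6, Klf4, Klf5, Sox2, Pdx1 and Cdx2, and all 10 of 10 were found among the 43346 Ensembl genes of the deposited tables by matching identifiers to GENCODE mouse symbols. The study sequenced total RNA of over 200 nt from 2 pools of whole stomachs of B6NCrl embryos, male and female together, as 2 biological replicates of 1 group with no treatment. The labels name 41 embryos for replicate 2, give no number for replicate 1, and give both pools the same donor entry. There is no second condition, so the data show how high each factor stood, in which transcripts, and how far the 2 libraries differed. As a whole organ was sampled, fewer cells of a type and less RNA per cell cannot be told apart.

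FOXA proteins are pioneer factors that open chromatin in the endoderm, and GATA4 and GATA6 act beside them in its epithelia. SOX2 marks the foregut and is needed for the oesophagus and forestomach, PDX1 marks the posterior stomach, duodenum and pancreas, and CDX2 sets intestinal identity. KLF5 is typical of dividing epithelial cells and KLF4 of differentiating ones. In the mouse stomach the squamous forestomach and the glandular stomach lie side by side, and GATA4 is known from the glandular side.

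The sequences before 5 annotated starts are shown: 2 of Foxa2, whose transcripts use separate starts, and those of Foxa3, Foxa1 and Cdx2, which hold the TATAAA and TGTTTAC matches described below. RefSeq tables on GRCm38.p6 gave windows of 250 bases before to 50 bases after a start for 7 of the 10 members, 9 windows in all; Gata4, Gata6 and Klf5 were not among them. The 250 bases before the start are printed 5′ to 3′ on the gene's strand, with capitals on matches to 4 motifs on either strand. The motifs searched were TATAAA for the promoter element of that name, then TGTTTAC for forkhead proteins such as the Foxa factors, AGATAA for GATA factors, and the promoter element CCAAT. No matches overlapped in the members' windows.
Foxa2-201 (chr2:148046970-148047219, minus strand): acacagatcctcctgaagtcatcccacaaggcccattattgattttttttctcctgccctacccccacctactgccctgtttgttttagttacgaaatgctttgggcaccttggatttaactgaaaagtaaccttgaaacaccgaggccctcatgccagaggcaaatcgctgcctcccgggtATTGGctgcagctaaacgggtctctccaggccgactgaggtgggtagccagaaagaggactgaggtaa
Foxa2-202 (chr2:148045949-148046198, minus strand): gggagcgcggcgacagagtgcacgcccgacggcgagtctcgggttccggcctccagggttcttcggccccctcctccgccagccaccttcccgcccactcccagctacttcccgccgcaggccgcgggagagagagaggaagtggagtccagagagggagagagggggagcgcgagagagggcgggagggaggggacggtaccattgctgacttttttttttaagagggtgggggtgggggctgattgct
Foxa3 (chr7:19023540-19023789, minus strand): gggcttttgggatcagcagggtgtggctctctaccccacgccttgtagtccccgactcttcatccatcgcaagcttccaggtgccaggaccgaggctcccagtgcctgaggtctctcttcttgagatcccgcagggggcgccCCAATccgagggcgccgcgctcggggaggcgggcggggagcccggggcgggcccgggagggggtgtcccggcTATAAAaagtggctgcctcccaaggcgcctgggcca
Foxa1 (chr12:57546112-57546361, minus strand): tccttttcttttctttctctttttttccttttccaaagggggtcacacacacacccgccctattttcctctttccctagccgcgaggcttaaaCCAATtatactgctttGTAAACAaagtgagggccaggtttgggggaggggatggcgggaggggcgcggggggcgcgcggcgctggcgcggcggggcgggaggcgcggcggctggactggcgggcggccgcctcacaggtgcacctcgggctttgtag
Cdx2 (chr5:147307250-147307499, minus strand): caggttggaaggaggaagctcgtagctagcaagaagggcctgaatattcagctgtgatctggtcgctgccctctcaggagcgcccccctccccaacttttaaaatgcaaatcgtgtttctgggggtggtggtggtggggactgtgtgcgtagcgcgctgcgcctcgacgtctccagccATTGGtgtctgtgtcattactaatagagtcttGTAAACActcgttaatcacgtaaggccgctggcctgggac

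Of the 7 members with a window, Foxa3 alone had TATAAA on the sense strand 45 to 15 bases before a RefSeq start. Its match begins 36 bases before the start, and 2.14% of all 32851 windows hold one in that place. TGTTTAC lay on the opposite strand in the Foxa1 window, 141 bases before the start, and in the Cdx2 window, 40 bases before it, and 3.65% of all windows hold it. The Foxa2-202 window held none of the 4 motifs, and the Foxa2-201 window held 1 CCAAT match on the opposite strand. CCAAT was in 6 of the 9 windows, against 37.4% of all windows. AGATAA was found in 1 of the 9 windows, that of Foxa2-203, against 11.2% of all windows. TATAAA on either strand was in 2 of the 9, those of Foxa3 and Foxa2-203, against 13.6% of all windows. The members' 9 windows had a median GC content of 62.3%, against 52.7% over all windows. The Klf4 window was the richest in GC at 74.3%, with 40 CpG sites, and the Foxa2-203 window the poorest in GC at 51.7%, with 13. The fewest CpG sites, 11, were in the Pdx1 window. A match is a run of letters and says nothing of binding.

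All 10 factors were detected, at 1 TPM or more in both libraries, where 64.3% of 21474 protein-coding genes were. TPM is a transcript's share of all transcripts after correction for length, scaled to a fixed total. Levels of different genes can therefore be set side by side as far as the annotated lengths are right. Klf5 led and Cdx2 was lowest, 25.3-fold apart in mean TPM as deposited and 12.6-fold apart with the M21 transcript lengths described below. Their summed level was 164.6 TPM in replicate 1 and 180.3 TPM in replicate 2. The median member stood at 7.83 TPM, between the 5.64 TPM median of all protein-coding genes and the 17.3 TPM median of the detected ones. Total expected counts were 44567153 in replicate 1 and 25677702 in replicate 2, so values of replicate 1 carry the smaller counting error.

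**Figure D1:**
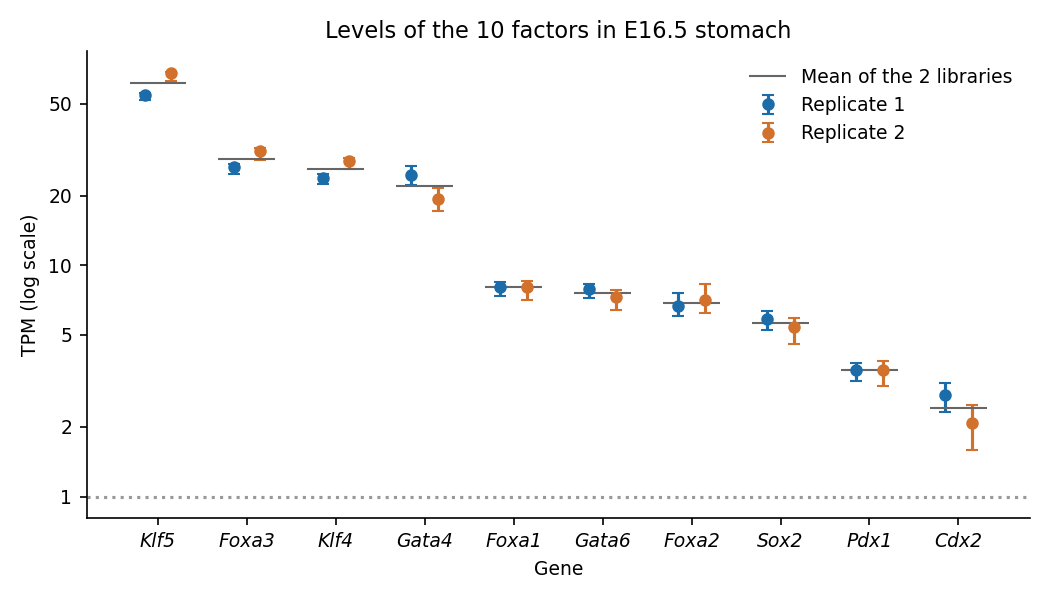
TPM (log scale) of the 10 factors in replicate 1 (blue) and replicate 2 (orange), with the authors' interval of each estimate as bars, the mean of the 2 libraries as a grey line and the 1 TPM detection limit dotted. Klf5, Foxa3, Klf4 and Gata4 lie between 19.4 and 67.8 TPM and the other 6 between 2.08 and 8.08 TPM.

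The Foxa genes differed among themselves in level. Foxa3 (ENSMUSG00000040891; chromosome 7, 19013284 to 19023538, minus strand) had 26.6 TPM in replicate 1 and 31.3 TPM in replicate 2, a mean of 28.9 ± 3.34 TPM (SD, n = 2), from 1571 and 1036 expected counts. Foxa1 (ENSMUSG00000035451; chromosome 12, 57540628 to 57546916, minus strand) had 8.08 and 8.05 TPM in replicates 1 and 2. Foxa2 (ENSMUSG00000037025; chromosome 2, 148042877 to 148046969, minus strand) had 6.68 and 7.11 TPM in replicates 1 and 2. Foxa3 was the highest of the 3 in both libraries, and Foxa2 had the lowest estimate, although the authors' intervals of Foxa1 and Foxa2 overlapped in both. Within a library, log2(TPM + 0.1) of Foxa3 exceeded that of Foxa1 by 1.71 in replicate 1 and 1.95 in replicate 2, a mean of 1.83 ± 0.17 (SD, n = 2). The Foxa2 minus Foxa1 difference was -0.27 and -0.18 on the same scale, a mean of -0.22 ± 0.07. With 2 libraries a two-sided exact sign-flip test cannot give less than p = 0.5, so these differences have no test.

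Gata4 stood above Gata6 in both libraries. Gata4 (ENSMUSG00000021944; chromosome 14, 63198922 to 63271692, minus strand) had 24.6 TPM in replicate 1 and 19.4 TPM in replicate 2, a mean of 22.0 ± 3.70 TPM (SD, n = 2), from 1740 and 719 expected counts. Gata6 (ENSMUSG00000005836; chromosome 18, 11052064 to 11085635, plus strand) had 7.88 and 7.32 TPM, a mean of 7.60 ± 0.40 TPM. The 2 ranges did not overlap. The Gata6 minus Gata4 difference of log2(TPM + 0.1) was -1.63 in replicate 1 and -1.40 in replicate 2, a mean of -1.51 ± 0.17. A transcript on the opposite strand, 1010001N08Rik, overlaps Gata6, with starts 503 bases apart, and stood at 7.08 and 7.80 TPM. Whether counting used the strand is not given in the sources used here, so reads of the overlap cannot be told apart. The GATA cofactor genes Zfpm2 and Zfpm1, also called Fog2 and Fog1, stood at 3.32 ± 0.12 and 1.68 ± 0.01 TPM (SD, n = 2).

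Klf5 and Klf4 were among the 3 highest members by mean. Klf5 (ENSMUSG00000005148; chromosome 14, 99298691 to 99315036, plus strand) had 54.7 TPM in replicate 1 and 67.8 TPM in replicate 2, a mean of 61.3 ± 9.28 TPM (SD, n = 2), from 2723 and 1888 expected counts. Klf4 (ENSMUSG00000003032; chromosome 4, 55527143 to 55532466, minus strand) had 23.9 and 28.3 TPM, a mean of 26.1 ± 3.15 TPM, from 2094 and 1424 counts. Klf5 exceeded Klf4 by 1.19 and 1.26 in log2(TPM + 0.1) in replicates 1 and 2, a mean of 1.23 ± 0.04. That gap rests on the length of 1 transcript model, described below, and is 0.22 with the length of a later annotation.

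The 3 factors that divide the gut along its length were the lowest of the set as deposited. With the M21 transcript lengths described below, Cdx2 remains the lowest, but Pdx1 stands above Foxa2 in both libraries and Sox2 above Foxa2 in replicate 1. Sox2 (ENSMUSG00000074637; chromosome 3, 34650405 to 34652461, plus strand) had 5.87 and 5.39 TPM in replicates 1 and 2, a mean of 5.63 ± 0.34 TPM (SD, n = 2). Pdx1 (ENSMUSG00000029644; chromosome 5, 147269959 to 147275848, plus strand) had 3.52 TPM in each, from 456 and 255 expected counts. Cdx2 (ENSMUSG00000029646; chromosome 5, 147300805 to 147307270, minus strand) had 2.76 and 2.08 TPM, a mean of 2.42 ± 0.48 TPM. Its 183 and 77 counts have exact Poisson 95% intervals of 157 to 212 and 60.8 to 96.2, which cover counting error only. Sox2 exceeded Cdx2 by 1.06 and 1.33 in log2(TPM + 0.1), a mean of 1.20 ± 0.19, and Pdx1 exceeded Cdx2 by 0.34 and 0.73, a mean of 0.54 ± 0.28, which is 1.55 with the M21 lengths. Pdx1 and Cdx2 face each other on chromosome 5, their gene ends 24956 bases apart. The antisense transcript Plut overlaps Pdx1 and stood at 3.58 and 3.80 TPM, and reads of the overlap cannot be told apart without the strand. Sox2ot, a long noncoding transcript that overlaps Sox2 on the same strand, is not analysed here. Gm27611, a small RNA gene beside Sox2, drew 1 and 0 counts.

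Marker genes of the pancreas, intestine and liver were present, and those of the lung were not. All 14 pancreas markers were detected, summing to 10961 TPM in replicate 1 and 11946 TPM in replicate 2, with Pnliprp1, a pancreatic lipase-related gene, at 3182 ± 39.1 TPM. Of 14 intestine markers 12 were detected, summing to 1432 and 1322 TPM, with the fatty acid-binding gene Fabp1 at 608 ± 95.9 TPM and Sis, the gene of an enterocyte brush border enzyme, at 0.045 ± 0.021 TPM. Of 9 liver markers, 8 were detected, summing to 1363 and 1084 TPM. Lung markers were at most 1.08 TPM in any library and 0 of 7 were detected; Nkx2-1, which marks the respiratory endoderm, drew 1 and 0 counts. Only marker transcripts were read. Whether tissue of these organs was in the sample, and its part in the levels of Pdx1, Cdx2, the Foxa genes and the Gata genes, was not tested.

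Ordered by mean, the members ran Klf5, Foxa3, Klf4, Gata4, Foxa1, Gata6, Foxa2, Sox2, Pdx1 and Cdx2. Of the 9 neighbouring pairs, the ranges over the 2 libraries overlapped in 2, Foxa3 with Klf4 and Klf4 with Gata4. The authors' intervals of the TPM estimates, whose level is not given in the sources used here, overlapped in both libraries for Foxa1 with Gata6 and for Gata6 with Foxa2. Those of Foxa2 and Sox2 overlapped in replicate 1 and were apart in replicate 2. Klf5 against Foxa3, Gata4 against Foxa1, Sox2 against Pdx1 and Pdx1 against Cdx2 were apart by both measures as deposited. Among the 13815 detected protein-coding genes, Klf5 stood at percentile 81.5, Foxa3 at 63.8 and Gata4 at 56.6, and Sox2, Pdx1 and Cdx2 at 22.3, 14.4 and 8.61.

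The annotation behind the deposited values bears on this order. For 7 members the length of the leading transcript in the deposited tables is within 40 bases of that in GENCODE M21, a later release on the same assembly. Klf5 was counted on a model of 1721 bases, against 3352 in M21; Klf5 in RefSeq ends 1624 bases before the M21 end. Pdx1 was counted on 4318 bases, against 2158 in M21. Its RefSeq end is the M21 end, and its RefSeq start lies 138 bases downstream of the M21 start. Sox2 was counted on 2457 bases, against 2057 in M21, and its RefSeq start lies 410 bases upstream of the M21 start. The same counts spread over the M21 length would give Klf5 27.3 and 33.8 TPM, Pdx1 7.21 and 7.21 TPM, and Sox2 7.07 and 6.49 TPM in replicates 1 and 2. Klf5 would then exceed Foxa3 narrowly in both libraries, and Pdx1 would stand above Foxa2 and Sox2 and below Gata6 in both. This holds the counts fixed, although a changed model would also change which reads are counted. Models whose length differs by over 1.5-fold were 2.77% of the 47459 protein-coding transcripts present in both annotations.

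**Figure D2:**
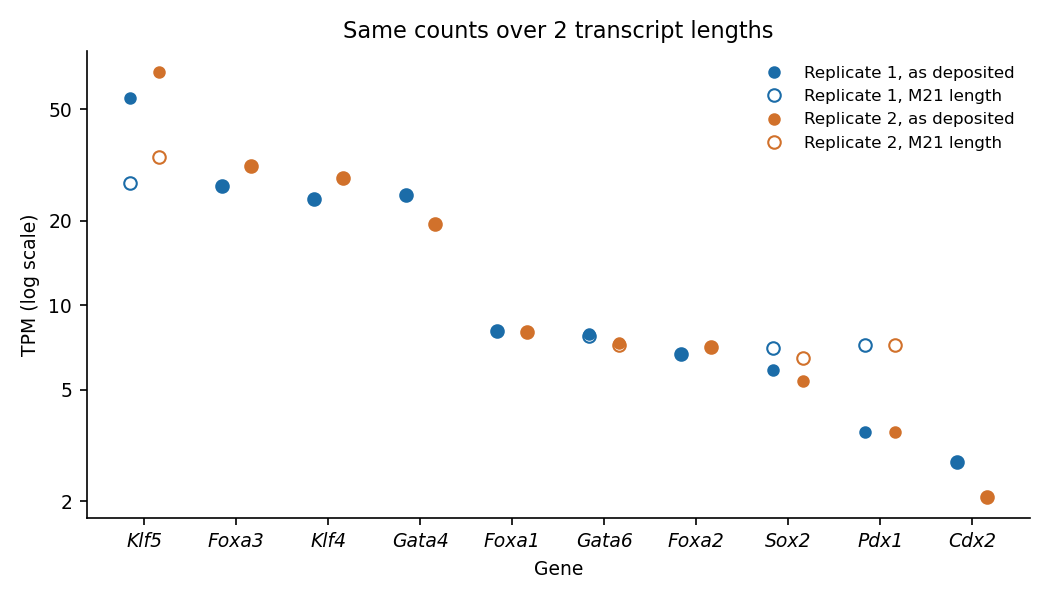
TPM (log scale) of the 10 factors as deposited (filled) and with the same counts over the GENCODE M21 length of the leading transcript (open), replicate 1 in blue and replicate 2 in orange. Klf5 drops to 27.3 and 33.8 TPM, Pdx1 moves up to 7.21 TPM, Sox2 moves up to 7.07 and 6.49 TPM, and open and filled points coincide or nearly so for the other 7.

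Each factor was placed within its family. Gata4 and Gata6 ranked 1 and 2 of the 6 Gata genes, all detected, ahead of Gata5 at 5.05 ± 0.76 TPM, and the lowest was Gata2 at 2.80 ± 0.23 TPM (SD, n = 2). Klf5 ranked 1 of 17 Klf genes, 15 of them detected, before Klf6 at 42.0 ± 2.12 and Klf10 at 40.1 ± 5.42 TPM, and Klf4 ranked 5; the lowest was Klf17 at 0.045 ± 0.021 TPM. With the M21 length Klf5 would rank 4, below Klf6, Klf10 and Klf3, taken at their deposited values. Foxa3 ranked 4 of 44 Fox genes, of which 22 were detected, and Foxa1 and Foxa2 ranked 12 and 13. The Fox genes above Foxa3 were Foxp1 at 90.2 ± 2.96, Foxf1 at 81.9 ± 0.54 and Foxn3 at 45.2 ± 1.98 TPM, and Foxf1 is a factor of gut mesenchyme; Foxr1 was listed at 0. Sox2 ranked 9 of 19 Sox genes, 15 of them detected, below Sox9 at 26.2 ± 0.07, the endothelial Sox18 at 20.99 ± 0.49 and Sox5 at 20.2 ± 1.39 TPM; Sox1 was listed at 0. Of the 6 ParaHox genes Pdx1, Cdx1 and Cdx2 were detected, Cdx1 at 2.84 ± 0.12 TPM between the other two, while Gsx1 and Gsx2 were listed at 0. Among 41 other endoderm or epithelial factors 33 were detected, with a list median of 7.07 ± 0.07 TPM, led by Elf3 at 153.6 ± 33.0, Tcf7l2 at 66.4 ± 4.09 and Grhl3 at 53.0 ± 12.9 TPM, and Nkx2-1 was the lowest. Some of these genes, such as Elf3, Nkx2-1, Foxf1, Sox18 and Cdx1, also stand in a marker list.

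**Figure D3:**
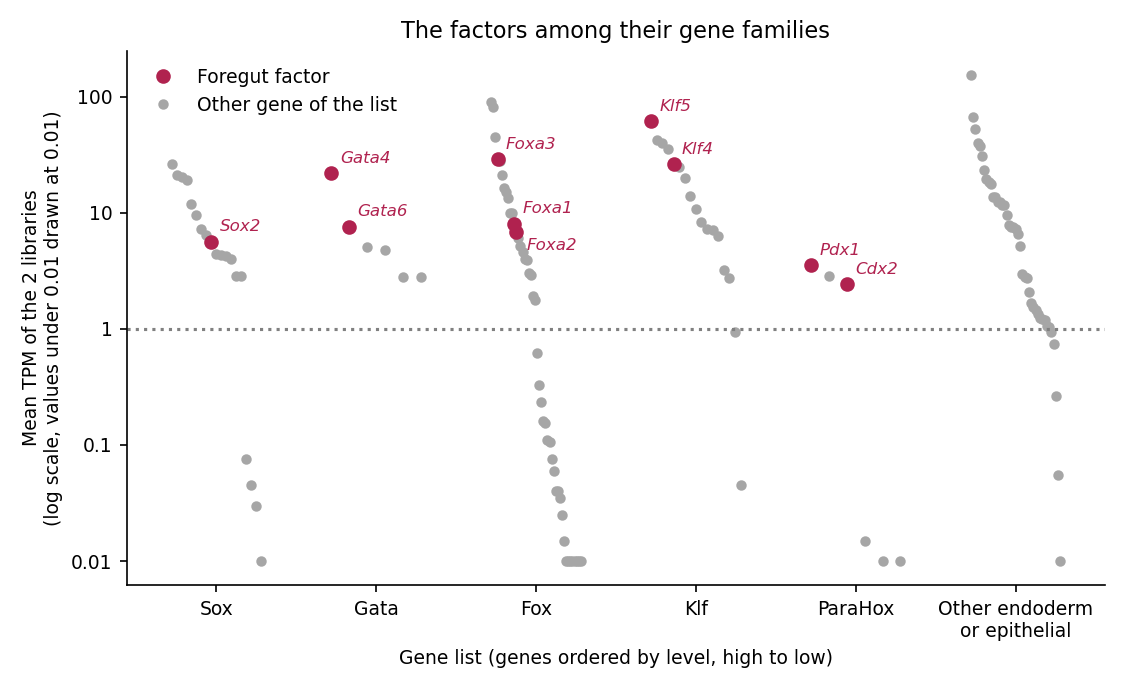
Mean TPM of the 2 libraries (log scale, values under 0.01 drawn at 0.01) for the genes of 6 lists, ordered from high to low within each list, with the foregut factors in red and the 1 TPM detection limit dotted. Gata4 and Klf5 head their families, and Sox2 lies in the middle of the Sox genes.

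Transcript estimates split 4 of the 10 members, since the tables hold 1 transcript for each of the other 6. Foxa3-201 held 90.5% and 92.8% of Foxa3 TPM in replicates 1 and 2, and Klf4-201 held 97.2% and all of Klf4 TPM. By TPM estimates these 2 genes had the same leading transcript in both libraries. Gata4 and Foxa2 did not, though their leading transcripts were not resolved, as described below.

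The annotated Gata4 transcripts begin in 3 places. Gata4-201 and Gata4-202, which begin 26421 bases downstream of the most distal start and carry coding sequences of 1326 and 1323 bases, held 52.7% of Gata4 TPM in replicate 1 and 37.4% in replicate 2. Gata4-203 begins 58085 bases downstream of the distal start and carries a coding sequence of 708 bases, and it held 17.6% and 33.1%. The distal models Gata4-204, Gata4-205 and Gata4-206, with annotated coding sequences of only 47, 34 and 34 bases, held 29.7% and 29.5% together. None of these 3 coding lengths is a whole number of codons, so the distal models are partial. Shares of TPM by place are therefore shares of annotated models and do not measure how often each start was used. The distal share was closer between the libraries than the shares of the other 2 places. These distal models are short, of 599 to 683 bases, and took 7.13% and 7.73% of the gene's expected counts against 75.2% and 56.8% for the middle place and 17.7% and 35.4% for the internal one. By single transcripts, Gata4-202 led in replicate 1 with 32.9% and Gata4-203 in replicate 2 with 33.1%, where Gata4-202 had 29.6%. The authors' intervals of Gata4-203 TPM, 3.07 to 5.95 in replicate 1 and 4.51 to 7.79 in replicate 2, overlap. Those of Gata4-202, 5.90 to 9.79 and 3.57 to 7.02 TPM, overlapped them within each library, narrowly in replicate 1. The order of Gata4-202 and Gata4-203 was therefore not resolved. By expected counts Gata4-202 led in both libraries, with 46.8% and 44.9%.

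Of these 4 genes, Foxa2 had the largest gap in transcript shares between the libraries, while its gene level was 6.68 and 7.11 TPM. Foxa2-201 held 52.5% of Foxa2 TPM in replicate 1 and 15.9% in replicate 2, and Foxa2-202 held 44.5% and 78.6%. The starts of these 2 transcripts, whose upstream sequences are printed above, lie 1021 bases apart, and their coding sequences are 1377 and 1395 bases. The authors' intervals are wide and overlap between libraries: 1.60 to 5.87 TPM in replicate 1 and 0.0453 to 4.26 TPM in replicate 2 for Foxa2-201, and 0.0796 to 4.46 and 1.90 to 6.68 TPM for Foxa2-202. Within each library the intervals of the 2 transcripts also overlapped, so their order was not resolved. The intervals were 4.27 and 4.21 TPM wide for Foxa2-201 and 4.38 and 4.78 TPM wide for Foxa2-202 in replicates 1 and 2, from 402 and 233 counts for the whole gene. Foxa2-203 held 2.999% and 5.49%, and Foxa2-204 was listed at 0 in both.

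**Figure D4:**
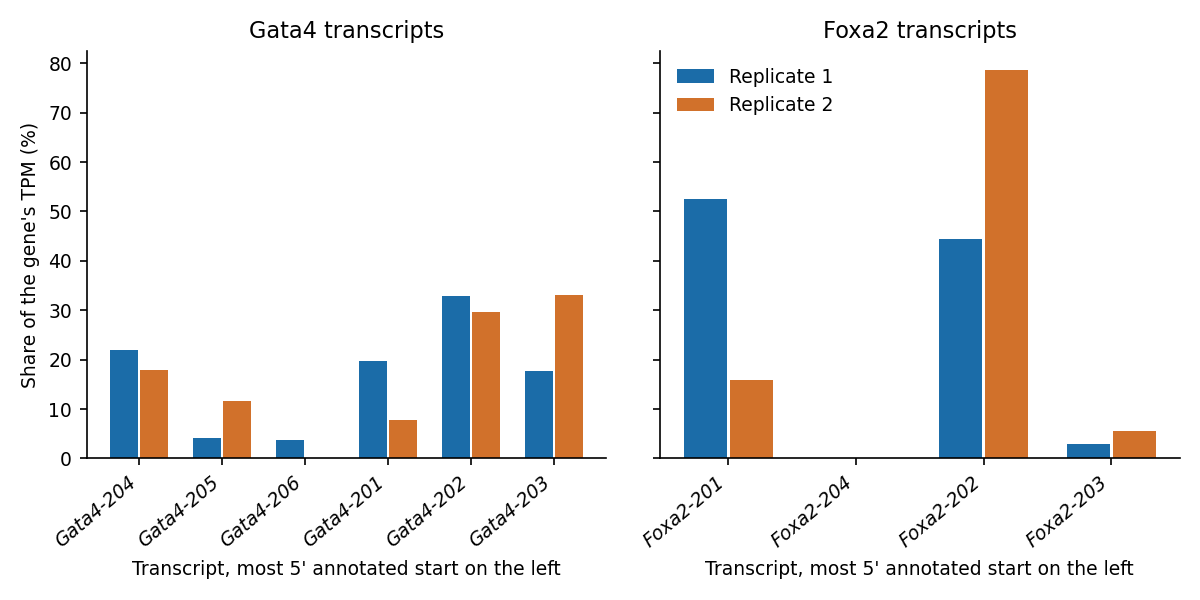
Share of the gene's TPM (%) held by each transcript of Gata4 and Foxa2 in replicate 1 (blue) and replicate 2 (orange), with transcripts ordered by annotated start, the most 5′ on the left. Gata4 TPM is spread over models with 3 annotated start places, of which the distal models are partial. The taller Foxa2 bar is Foxa2-201 at 52.5% in replicate 1 and Foxa2-202 at 78.6% in replicate 2.

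Between the libraries no member differed by 2-fold, where 3.58% of 17763 genes did. Ratios here are log2 ratios of expected counts, replicate 1 over replicate 2, after edgeR's TMM scaling, with no test since each side is 1 library. Gata4 had the largest, 0.47, with a 95% counting half-width of 0.13 from the Wilson interval. Cdx2 had 0.44 with a half-width of 0.38. From unscaled log2(TPM + 0.1) the ratio was 0.34 for Gata4 and 0.39 for Cdx2, so Cdx2 then had the largest. Klf5 had -0.27 with a half-width of 0.08, Klf4 -0.25 and Foxa3 -0.20. The other 5 lay between -0.02 and 0.16, and the median member ratio was 0.04, with 6 of 10 above 0. The authors' TPM intervals of the 2 libraries were apart for Klf5, Foxa3, Klf4 and Gata4, 4 of 10 members, against 23.2% of detected protein-coding genes and 19.1% of the 10067 of them within the members' range of levels.

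Markers of the epithelia also stood at unequal levels in the libraries. All 12 squamous forestomach markers had ratios below 0, with a median of -0.44 and sums of 6712 TPM in replicate 1 and 10565 TPM in replicate 2. All 14 matched glandular markers had ratios below 0, with a median of -0.67 and sums of 7265 and 11811 TPM, and so did all 9 simple epithelium markers, with a median of -0.32 and sums of 3663 and 4688 TPM. Klf5, Klf4 and Foxa3 shared this direction, Foxa1, Gata6, Sox2, Pdx1, Gata4 and Cdx2 had ratios above 0 with TMM scaling, below 0 with spike-in scaling, and Foxa2 had -0.02. The 8 liver markers past the low-count filter all had ratios above 0, with a median of 0.34, and 9 of 13 intestine markers did, with a median of 0.07. Medians were 0.01 for mesenchyme, -0.19 for mesothelium, -0.01 for endothelium and -0.03 for enteric neural markers. They were 0.08 for pancreas and 0.10 for erythroid markers, and each of these lists had genes on both sides of 0. The part of these marker lists in the members' ratios was not tested. Spike-in RNA took 3.08% of counts in replicate 1 and 2.05% in replicate 2, and scaling by it placed all 10 members below 0, with a median of -0.54, beside a median of -0.57 over all genes.

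**Figure D5:**
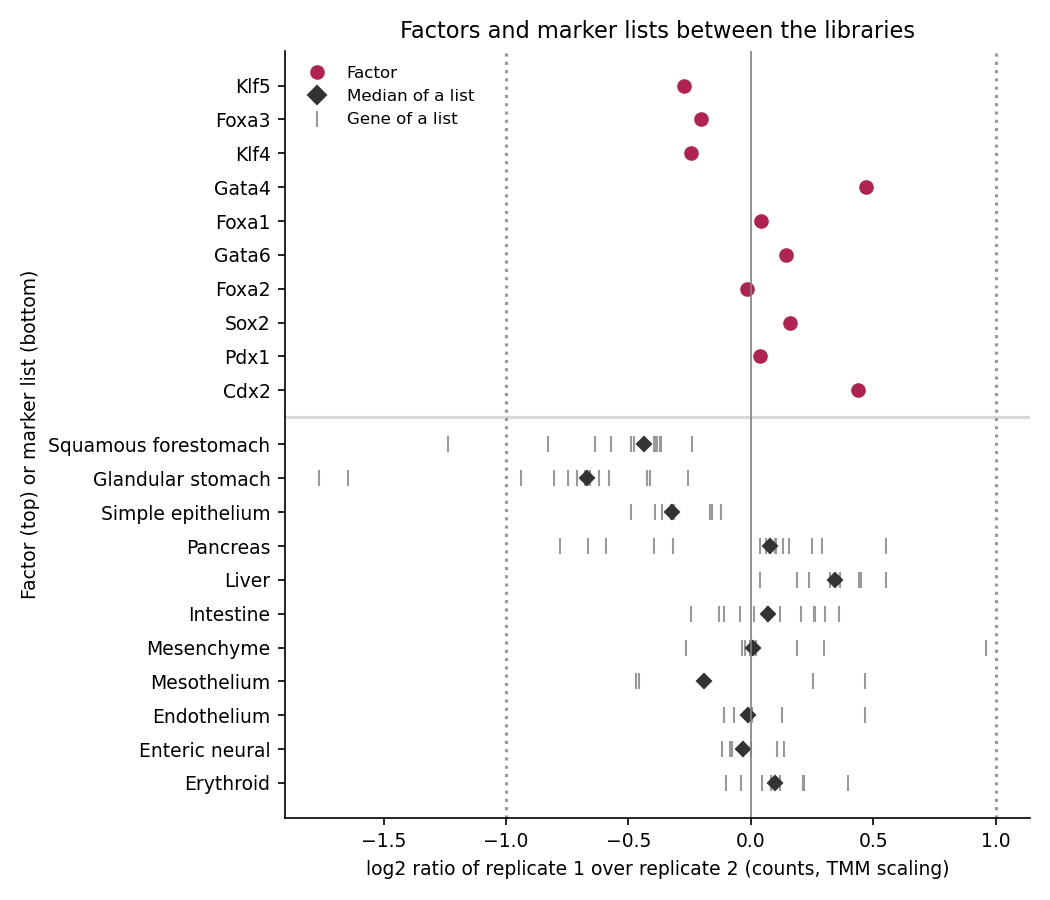
Log2 ratio of replicate 1 over replicate 2 from expected counts with TMM scaling, for each factor (red circles, top) and each marker list (ticks for genes past the low-count filter, diamonds for medians, bottom), with dotted lines at 2-fold. The factors lie between -0.27 and 0.47, and the squamous, glandular and simple epithelium genes lie below 0; spike-in scaling would put all 10 factors below 0.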

How the data were processed

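The labels give mirVana extraction of total RNA, 10 ng of it per library, and ERCC spike-ins. The deposited text files name mm10 and annotation M4. No source used here gives the aligner, the quantifier or whether counting used the strand. Expected counts, estimated reads per gene or transcript that need not be whole, were deposited by the authors. TPM, posterior mean TPM and their intervals were deposited by the authors, as were FPKM values and, in the transcript tables, each transcript's percent of its gene. Each gene table held 69691 rows, of which 26248 have numeric identifiers and 96 are spike-ins; these drew 75.0 and 27.0 counts (numeric) and 3.08% and 2.05% of counts (spike-ins) in replicates 1 and 2 and stayed out of library sizes. The totals of 44567153 and 25677702 counts set the precision, and a count of 0 allows up to 3.

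Symbols, transcript names and positions come from GENCODE M21 (GRCm38), which named 42442 genes. edgeR 4.0.16, run in R 4.3.3, took the rounded expected counts through filterByExpr and TMM with a prior count of 2, and DESeq2 1.42.0 gave alternative size factors. The TMM ratio was tested only on simulated counts with fold changes planted in well-counted genes, not with the spike-in or DESeq2 scaling. Pair differences used log2(TPM + 0.1). With 1 group no test between conditions exists, and p-values were not computed. The rest ran in Python 3.11.15 with pandas 2.3.3, numpy 2.4.6, matplotlib 3.10.9 and scipy 1.17.1. The promoter windows are RefSeq sequences, GRCm38.p6.

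The members and gene lists were chosen with earlier results of these data known. Named were all members, the 3 highest genes and the lowest of each list, transcripts with 10% or more of their gene's TPM in a library (others by their share), and genes that overlap a member or start within 5000 bases of its start. Sympk, the head-to-head neighbour of Foxa3, stood at 17.6 ± 1.08 TPM (SD, n = 2), with starts 839 bases apart. The M21 length and the grouping of Gata4 transcripts by start, which joins starts within 1000 bases, were chosen after values had been seen, as was the mention of Klf3. Cblif was not matched, and 1 gene that the rule names is not reported here.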

Additional observations from a re-analysis of the deposited data

How the results depend on the processing

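With a limit of 0.5 TPM, with FPKM, with posterior mean TPM or with either library alone, all 10 members were still detected, and 8 were at 5 TPM. Rescaling TPM to Ensembl genes moved the median member from 7.83 to 8.30 TPM. Spike-in library sizes moved the median member ratio from 0.04 to -0.54, beside all genes at -0.57, while DESeq2 size factors, no low-count filter, a prior count of 0.5 and unscaled TPM gave 0.003 to 0.04. A pseudocount of 1 moved the Sox2 minus Cdx2 difference to 0.96. The M21 lengths moved it to 1.46, Klf5 minus Klf4 to 0.22 and Pdx1 minus Cdx2 to 1.55, by their construction. No pair difference changed sign under any alternative, either library alone included. By expected counts 3 of the 4 members with several transcripts shared their leading transcript, since Gata4-202 then led in both libraries, and by posterior mean TPM 2 did. List genes detected numbered 201, and 209 at 0.5 TPM, 154 at 5 TPM, 194 with FPKM, and 205 and 203 without replicates 1 and 2. No paired analysis was possible because the 2 libraries form 1 group. Leaving out a library gives no ratio. Depth limits Cdx2, the member with the fewest counts.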

Other observations

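The other tissues of the sample were read from marker lists. Squamous markers were led by Krt4 at 2520 ± 1036 TPM, Krt13 at 1952 ± 632 and Krt15 at 1337 ± 198 TPM, and the lowest was Trp63, the basal cell factor, at 39.95 ± 7.86 TPM (SD, n = 2 throughout). Cym, the gene of the milk-clotting protease chymosin, led the glandular list at 8097 ± 2780 TPM, before Tff1 at 433.9 ± 137 and Cldn18 at 362.6 ± 101 TPM, and the mucin gene Muc5ac was lowest at 2.34 ± 0.48 TPM. The keratin genes Krt8, Krt19 and Krt18 led the simple epithelium list at 1159 ± 202, 1100 ± 244 and 491 ± 46.7 TPM, with Cldn4 lowest at 67.9 ± 11.97 TPM. Pancreatic Ctrb1 and Amy2a5 stood at 2915 ± 137 and 2121 ± 367 TPM and Nkx6-1 at 1.19 ± 0.07 TPM. Among liver markers Apoa1, Afp and Alb stood at 475 ± 65.6, 369 ± 92.4 and 169 ± 16.5 TPM, and Tat drew 2 and 0 counts. Lgals4 and Apoa4 of the intestine list stood at 303 ± 24.8 and 174 ± 14.3 TPM, and Scgb1a1, Sftpc and Foxj1 of the lung list at 0.84 ± 0.34, 0.75 ± 0.34 and 0.33 ± 0.03 TPM.

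All genes of the mesenchyme, mesothelium, endothelium, enteric neural and erythroid lists were detected, 9, 5, 7, 7 and 8 genes. Mesenchyme was led by Col3a1 at 2588 ± 259, Acta2 at 2365 ± 350 and Col1a1 at 1708 ± 36.2 TPM, with Nkx2-5 lowest at 3.70 and 1.92 TPM in replicates 1 and 2. Mesothelial Upk1b, Msln and Upk3b stood at 73.9 ± 17.7, 57.5 ± 14.1 and 44.8 ± 4.94 TPM and Lrrn4 at 8.66 ± 0.92 TPM. Endothelial Pecam1, Kdr and Sox18 stood at 44.0 ± 2.998, 22.4 ± 1.57 and 20.99 ± 0.49 TPM, and Sox17 at 4.24 ± 0.70 TPM. Neural Tubb3 and Elavl4 stood at 39.99 ± 3.03 and 28.8 ± 0.79 TPM and S100b at 2.22 ± 0.08 TPM. The globin genes Hba-a2, Hbb-bs and Hba-a1 stood at 11302 ± 246, 5987 ± 192 and 4586 ± 50.1 TPM, and Gata1, which the Gata family list also holds, at 4.75 ± 0.13 TPM; reads of near-identical globin copies are split between them by estimation.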
